A study of Mus musculus with 96 samples.

Results

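Integrins are the adhesion receptors by which blood cells hold on to stroma, vessel walls and each other, and 10 of their chains were followed here through single splenic cells of a mouse acute myeloid leukaemia. The chains were chosen by gene name: the alpha chains Itga4, Itga5, Itga6, Itgal, Itgam and Itgae and the beta chains Itgb1, Itgb2, Itgb3 and Itgb7, which are 10 of the 23955 genes in the deposited expression table. All 10 were present in the table, and all 10 had a mean of at least 1 TPM over the 96 cells.

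The study asked how loss of Dnmt3a, a DNA methyltransferase, changes expression in leukaemia driven by Flt3-ITD, an activating duplication in a growth factor receptor. Spleens came from 2 moribund mice of the same genotype, Flt3ITD/ITD;Dnmt3afl/- MxCre, in which 1 Dnmt3a allele is deleted, the other is floxed, and Cre is driven by the interferon-inducible Mx1 promoter. Cells with surface c-Kit, a progenitor cell receptor, were enriched with magnetic beads, caught singly on a microfluidic chip and sequenced, 48 from each mouse. Age and sex are not given in the sources used here, cells of another genotype were not analysed here, and mouse and capture round cannot be told apart. Between the mice there is 1 animal on each side, so no test was possible. State differences were taken within each mouse, and with 2 animals an exact two-sided sign permutation over the mice cannot go below p = 0.5, so none is given. Cells of a mouse are not replicates of a condition. Values below are therefore descriptions of these 96 cells, and intervals on shares (exact binomial, 95%) cover the counting of cells only.

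An integrin works as a pair of an alpha and a beta chain, and a chain without a partner generally does not reach the cell surface. Itgb2 pairs with Itgal and Itgam to make the leukocyte integrins that bind intercellular adhesion molecules and, for Itgam, complement fragments. Itgae, known as CD103, pairs with Itgb7, binds E-cadherin and marks cross-presenting dendritic cells and many tissue T cells. Itga4 pairs with Itgb1 to bind the vascular ligand VCAM1 and with Itgb7 to bind the mucosal ligand MAdCAM1, whereas Itga5 and Itga6 pair with Itgb1 to bind fibronectin and laminin, and Itgb3 pairs with Itga2b on platelets and with Itgav on many cells.

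Cells were placed in 4 states by 3 marker genes at 1000 TPM or more (a transcript share scaled to the same total in every cell, and a level per transcript length that allows comparison between genes). H2-Aa, a class II antigen-presentation chain, defined 14 cells of mouse 1 and 20 of mouse 2. S100a8, a protein abundant in maturing neutrophils, defined 1 and 10 cells. Mpo, the peroxidase of granulocyte and monocyte progenitors, defined 13 and 12, and 20 and 6 cells remained. A cell past several levels took the first of H2-Aa, S100a8 and Mpo, which concerned 1 cell of mouse 1 and 3 of mouse 2. H2-Aa separated cleanly, since the lowest class II-high cell held 20801 TPM in mouse 1 and 6732 in mouse 2 and the highest cell outside held 98.3 and 114.5. Mpo did not, since the lowest Mpo-high cell of mouse 1 held 1033 TPM and the highest remaining cell 998.9. Ptprc, the pan-leukocyte phosphatase, reached 10 TPM in 43 and 44 of 48 cells and Kit in 33 and 22, which bears on the label of c-Kit-selected blood cells but not on whether a cell was leukaemic. States differed in the median number of genes detected, from 2922 and 2581 in class II-high cells and 2821 in the S100a8-high cells of mouse 2 to 4463 and 4041 in Mpo-high cells. Leaving out H2-Aa, which defined the state, 9 and 8 of the other 10 conventional dendritic cell markers reached 10 TPM in at least 50% of class II-high cells of mice 1 and 2, against 2 and 3 in Mpo-high cells. Leaving out S100a8, 6 of the other 7 late neutrophil markers did so in S100a8-high cells of mouse 2, against 3 in its Mpo-high cells. The single S100a8-high cell of mouse 1, cell 13, went against that name: it held 1251 TPM of S100a8, 34099 TPM of Mpo and no S100a9, so S100a8-high cells were compared in mouse 2 only.

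Among the chains, Itgae was high in class II-high cells, Itgam in S100a8-high cells, and Itgb2 in both of these states. Mpo-high cells held little Itgb2, while remaining cells were mixed, with Itgb2 at 19.1% and 42.1% of their summed integrin level. Itga6 was found outside class II-high cells, while Itga4, in 9 of 14 and 13 of 20 class II-high against 9 of 13 and 8 of 12 Mpo-high cells, did not set these states apart. Summed over the 10 chains, the mean level was 1261 and 1469 TPM in class II-high cells of mice 1 and 2, 1197 TPM in S100a8-high cells of mouse 2, 225.6 and 186.0 TPM in Mpo-high cells and 284.2 and 250.9 TPM in remaining cells. Itgae and Itgb2 together account for most of the class II-high sum, with Itgae alone at 46.7% and 48.9% of it. The median cell held 4.5 chains at 10 TPM or more in class II-high cells of either mouse, against 3 and 2 chains in Mpo-high cells.

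**Figure D1:**
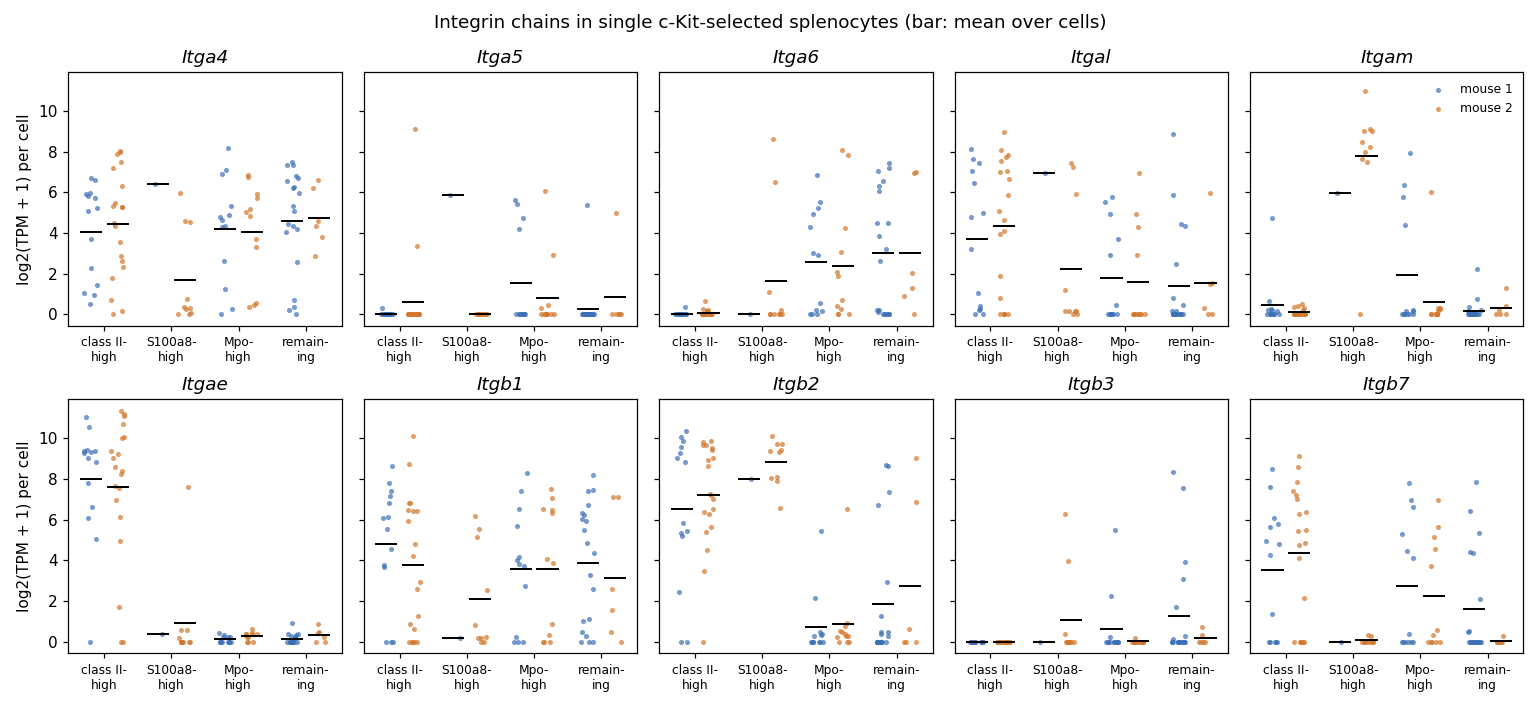
Level of each integrin chain in every cell, as log2(TPM + 1), by cell state, with mouse 1 in blue, mouse 2 in orange and a bar at the mean over cells. Itgae is high in class II-high cells and near 0 in all others but 1, Itgam is high in S100a8-high cells, and Itgb2 is high in both of these states.

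**Figure D2:**
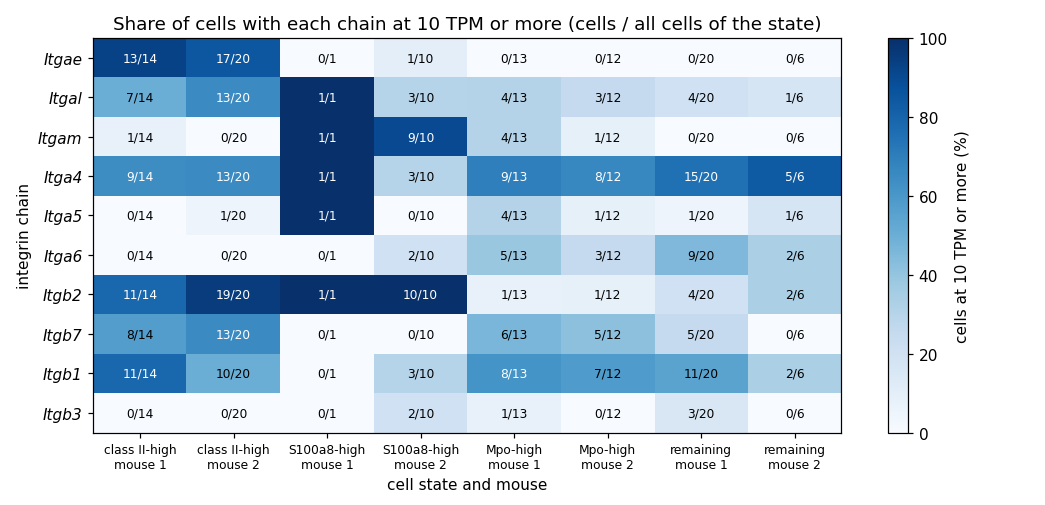
Share of cells with each chain at 10 TPM or more, in percent, for each state and mouse, with the cells counted printed in each box. Itgae was detected in 13 of 14 and 17 of 20 class II-high cells, and Itgb2 in 10 of 10 S100a8-high cells of mouse 2.

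Itgae (chromosome 11, 73090505 to 73147449, GRCm38.p6) was the chain most closely tied to a state. In class II-high cells its level ran from 0 through a median of 571 to 2092 TPM in mouse 1 and from 0 through 362 to 2620 TPM in mouse 2. It reached 10 TPM in 13 of 14 cells (92.9%, 66.1 to 99.8%) and 17 of 20 cells (85%, 62.1 to 96.8%). Outside that state it was close to 0: no cell of mouse 1 exceeded 0.85 TPM, and in mouse 2 a single cell did so by far. In the 51 Mpo-high and remaining cells of both mice, 0 reached 10 TPM, a count that allows up to 5.88% of such cells. The exception, cell 73 of mouse 2, held 196.2 TPM of Itgae beside 201252 TPM of S100a8. That cell also held 112 TPM of Xcr1, by which cross-presenting dendritic cells sense a chemokine, and 114.5 TPM of H2-Aa, so it carried transcripts of both states, and whether it held material of more than 1 cell was not tested. The 4 class II-high cells without Itgae (1 in mouse 1, 3 in mouse 2) all held Xcr1, and they had fewer detected genes, 1759 in mouse 1 and a median of 2075 in mouse 2 against medians of 2933 and 2805 in class II-high cells with Itgae.

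Because Itgae is also a T cell integrin, T and NK markers were read in the same cells. Of the 9 such markers with values, Cd3e, Cd3g, Cd4 and Ncr1 were 0 in every class II-high cell. Cd8a reached 10 TPM in at least 1 class II-high cell of mouse 1, and Nkg7 did so in mouse 2. The summed level of the 9 did not exceed 28.5 TPM in mouse 1 or 11.2 TPM in mouse 2. The gene whose level over cells ran closest to Itgae was Amica1, a leukocyte junctional adhesion molecule, with Spearman correlations of 0.72 and 0.70 over the 48 cells of mice 1 and 2. Olfm1 (0.69 and 0.77) and H2-Ab1, the class II beta chain (0.69 and 0.68), came next among 4052 genes detected in at least 10 cells of each mouse. These cells share their state and their depth of detection, so the values describe co-occurrence only. For Itga4, Itgal, Itgb1, Itgb2 and Itgb7 the closest gene reached only 0.32 to 0.47 in the mouse with the lower value, which in data this sparse is not read as a likeness.

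Itgb7 (chromosome 15, 102215994 to 102233405), the only known partner of Itgae, was broader. It ran from 0 through a median of 22.4 to 360.5 TPM in class II-high cells of mouse 1 and from 0 through 35.1 to 555.7 TPM in mouse 2. In Mpo-high cells it ran from 0 through 0.30 to 220 TPM and from 0 through 0.35 to 121.6 TPM. The ranges overlapped, with 1 of 14 and 6 of 20 class II-high cells above the highest Mpo-high cell. Among cells at 10 TPM or more, the median was 51.8 TPM in class II-high and 67.2 TPM in Mpo-high cells of mouse 1, and 80.6 and 33.7 TPM in mouse 2. Itgb7 reached 10 TPM in 8 of 14 and 13 of 20 class II-high cells, in 6 of 13 and 5 of 12 Mpo-high cells, in 5 of 20 and 0 of 6 remaining cells, and in 0 of 10 S100a8-high cells of mouse 2. That 0 allows a share of up to 30%. The highest S100a8-high cell held 0.23 TPM.

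Itgb2 (chromosome 10, 77530329 to 77565708), the shared beta chain of the leukocyte integrins, was high in both class II-high and S100a8-high cells. Class II-high cells ran from 0 through a median of 251.8 to 1331 TPM in mouse 1 and from 0 through 148.5 to 932.1 TPM in mouse 2. All 10 S100a8-high cells of mouse 2 held it, from 94.2 through 645 to 1116 TPM. Mpo-high cells had medians of 0 and 0.27 TPM, and a single cell in each mouse reached 10 TPM, at 41.9 and 91.7 TPM. In mouse 2 the lowest S100a8-high cell, cell 86 at 94.2 TPM, lay only just above the highest Mpo-high cell at 91.7 TPM. That separation rests on the order of states, since cells 79 and 86 also held 15088 and 20561 TPM of Mpo. With Mpo taken first both would be Mpo-high, at 267.2 and 94.2 TPM of Itgb2. How many of all genes separate these states was not counted. Class II-high cells overlapped Mpo-high cells through the single highest Mpo-high cell of each mouse and the class II-high cells near 0. Among remaining cells Itgb2 was split, present in 4 of 20 and 2 of 6 cells at 105.6 to 517.2 TPM and under 10 TPM in the others.

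Itgal (chromosome 7, 127296139 to 127335137), the alpha chain of the lymphocyte function-associated integrin, was detected in 7 of 14 and 13 of 20 class II-high cells. Its medians there were 17.6 and 28.5 TPM and its highest values 283 and 495 TPM. In Mpo-high cells both medians were 0, the highest values were 54 and 122 TPM, and 4 of 13 and 3 of 12 cells held it. The states overlapped. The highest Itgal level of the remaining cells, 470.6 TPM in cell 27 of mouse 1, lay above every class II-high cell of that mouse. Itgax, the alpha chain CD11c of dendritic cells, is not among the 10 chains but pairs with Itgb2. Itgax reached 10 TPM in 8 of 14 and 8 of 20 class II-high cells and did not exceed 0.16 TPM in mouse 1 or 0.63 TPM in mouse 2 elsewhere, so it was detected in fewer class II-high cells than Itgae.

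Itgam (chromosome 7, 128062640 to 128118491), the CD11b chain of granulocytes and monocytes, marked the S100a8-high cells. In mouse 2 its level there ran from 0 through a median of 329 to 2015 TPM, and 9 of 10 cells held it (90%, 55.5 to 99.7%), each at 177 TPM or more. The cell at 0, cell 86, also held 20561 TPM of Mpo and the lowest S100a8 of the group, 26570 TPM. The highest, cell 73, is the cell that also held Itgae. In Mpo-high cells Itgam reached 10 TPM in 4 of 13 cells of mouse 1, at up to 243.5 TPM, and in 1 of 12 cells of mouse 2, at 64.3 TPM. Class II-high cells held it in 1 of 14 and 0 of 20 cells and remaining cells in 0 of 20 and 0 of 6, and the zero counts allow up to 15% in the class II-high cells of mouse 2 and in the remaining cells of mouse 1, and of up to 50% in the 6 remaining cells of mouse 2. Set against Mpo-high cells of mouse 2, Itgam and Itgb7 were thus on opposite sides in S100a8-high cells. Itgam stayed past 2-fold in every setting given below, and Itgb7 did not.

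The start regions of these 2 genes are shown because their chains were on opposite sides in the same cells and both windows were in the RefSeq promoter table (GRCm38.p6), which held a window for 5 of the 10 chains. Each runs from 250 bases before to 50 bases after a transcript start, 5′ to 3′ on the gene's strand. Capitals mark GAGGAA, or TTCCTC on the other strand, a core that PU.1 binds. PU.1 is a transcription factor of myeloid cells and B cells, and its binding to the human ITGAM promoter is known. Itgam lies at chr7:128062390-128062689 on the plus strand, and Itgb7 at chr15:102231886-102232185 on the minus strand, at a start inside the annotated gene.
Itgam: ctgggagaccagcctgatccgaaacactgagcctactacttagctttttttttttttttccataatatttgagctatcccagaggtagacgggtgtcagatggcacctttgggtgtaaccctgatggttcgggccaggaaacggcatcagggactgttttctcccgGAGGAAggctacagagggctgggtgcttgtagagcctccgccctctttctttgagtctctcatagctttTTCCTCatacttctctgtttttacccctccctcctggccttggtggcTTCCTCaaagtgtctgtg
Itgb7: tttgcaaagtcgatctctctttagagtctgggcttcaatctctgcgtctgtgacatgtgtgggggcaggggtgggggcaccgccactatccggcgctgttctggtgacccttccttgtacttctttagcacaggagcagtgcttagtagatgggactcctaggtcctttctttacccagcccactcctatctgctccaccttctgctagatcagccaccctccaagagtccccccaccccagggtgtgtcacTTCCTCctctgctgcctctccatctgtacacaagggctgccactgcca
The Itgam window held 3 copies, at positions -84, -15 and 33 counted from the start base as 1, and the Itgb7 window held 1 copy, at position 3. The windows of Itgb1 and Itga5 held 1 copy each and that of Itga4 held 0. Of 32851 promoter windows of the same length, 28.3% held at least 1 copy on either strand and 0.685% held at least 3. These are matches of letters and say nothing of binding in these cells.

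Itga4 (chromosome 2, 79255426 to 79333114) was the most widely detected alpha chain, reaching 10 TPM in 34 and 29 of the 48 cells. Class II-high, Mpo-high and remaining cells overlapped, with medians of 34.5, 24 and 35.9 TPM in mouse 1 and 29.7, 29.7 and 21.4 TPM in mouse 2. Above the highest Mpo-high cell lay 0 of 14 class II-high cells of mouse 1 and 5 of 20 of mouse 2. S100a8-high cells of mouse 2 stood lower, from 0 through a median of 0.26 to 61.7 TPM, and 3 of 10 held it. Itgb1 (chromosome 8, 128685654 to 128733579), the beta chain that most alpha chains outside the leukocyte family use, was detected in 30 and 22 of 48 cells. Its medians were 56.0 and 12.1 TPM in class II-high cells, 13.2 and 14.6 TPM in Mpo-high cells and 0.45 TPM in S100a8-high cells of mouse 2, with ranges that overlapped.

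Itga6 (chromosome 2, 71786886 to 71858427), a laminin receptor chain carried by many stem and progenitor cells, was absent at 10 TPM from all class II-high cells. None of the 14 cells of mouse 1 exceeded 0.27 TPM and none of the 20 of mouse 2 exceeded 0.55 TPM, counts that allow up to 21.4% and 15%. Mpo-high cells held it in 5 of 13 and 3 of 12 cells, with medians of 6.53 and 1.63 TPM and highest values of 113.6 and 272 TPM. Remaining cells held it in 9 of 20 and 2 of 6 cells, with highest values of 174.9 and 128.7 TPM. S100a8-high cells of mouse 2 were at 0 in the median, yet 2 of 10 held Itga6, at 90.01 and 397.7 TPM, the latter the highest Itga6 level of the 96 cells. Itga5 (chromosome 15, 103344286 to 103366791), the fibronectin receptor chain, was rare, reaching 10 TPM in 6 and 3 cells of the mice. Of these 9 cells, 5 were Mpo-high, and the highest was a class II-high cell of mouse 2 with 552 TPM.

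Itgb3 (chromosome 11, 104608000 to 104670476), best known from platelets, reached 10 TPM in 4 and 2 cells of the mice, and it was 0 in all 34 class II-high cells. Its highest cell, cell 19 of mouse 1 with 317.5 TPM, also held 7403 TPM of Cpa3, a mast cell and basophil protease. The next, cell 35 of mouse 1 with 185.2 TPM, held 22960 TPM of the platelet chemokine Pf4, 74.4 TPM of the platelet receptor subunit Gp9 and 174.9 TPM of Itga6. Cell 34 of mouse 1, an Mpo-high cell with 43.2 TPM of Itgb3, held neither Cpa3, Pf4 nor Gp9. The last cell of mouse 1, cell 40, held 14.1 TPM of Itgb3 and 203 TPM of Gp9. Itga2b, the platelet partner, was at 10 TPM or more together with Itgb3 in 1 cell, cell 35, and Itgav in none. The 2 cells of mouse 2 were S100a8-high, with 76.5 and 14.4 TPM.

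Differences between states were taken as the difference of the mean log2(TPM + 1) over cells, and a difference of at least 1, which is 2-fold, in the same direction in each mouse compared was counted. Class II-high cells were past 2-fold higher than Mpo-high cells in 3 of 10 chains, against 3.06% of the 11015 genes with a mean of at least 1 TPM. These were Itgae, by 7.87 in mouse 1 and 7.35 in mouse 2, Itgb2, by 5.83 and 6.35, and Itgal, by 1.91 and 2.77. Only Itga6 was past 2-fold lower, at -2.56 and -2.31, where 27.4% of all genes were. In either direction 4 of 10 chains stand beside 30.5% of all genes. Itgb7 was at 0.76 and 2.10 and not counted, although it was counted when any of 8 single cells of mouse 1 was left out, with differences in that mouse between 0.38 and 1.18.

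The median gene was lower in class II-high than in Mpo-high cells. Over the 1230 genes that reached 10 TPM in at least 50% of each mouse's cells, the median shift from Mpo-high cells was -1.16 and -1.58 for class II-high cells, -1.94 for S100a8-high cells of mouse 2, and -0.35 and -0.37 for remaining cells. Taking that shift off every gene, 6 chains were higher, where 23.1% of all genes were, and 0 lower, where 7.66% were, in class II-high cells, Itga4, Itgb1 and Itgb7 joining Itgae, Itgb2 and Itgal, and Itga6 was no longer counted. Nor was Itga6 counted once the number of detected genes was removed by regression. In the RPKM table, where few cells rise above the lowest value, 0 of 9 chains were past 2-fold.

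S100a8-high cells of mouse 2 were past 2-fold higher than its Mpo-high cells in 3 chains, where 6.82% of all genes were, and lower in 3, where 37.6% were, or 6 chains in either direction where 44.5% of all genes were. The higher chains were Itgb2 by 7.97, Itgam by 7.21 and Itgb3 by 1.05. Itgb3 rested on the 2 cells named above, and without cell 50 the difference was 0.47, under 2-fold, as it also was without cell 90. The lower chains were Itga4 at -2.38, Itgb7 at -2.17 and Itgb1 at -1.50. With the median shift taken off every gene, 7 chains were higher, where 60.9% of all genes were, and 0 lower, where 8.31% were. On that scale Itga4 and Itgb7 were no longer counted, and Itgb1 turned to 0.45. With a pseudocount of 10 TPM in place of 1, Itgam, Itgb2 and Itga4 stayed past 2-fold and Itgb3, Itgb1 and Itgb7 did not. In the RPKM table Itgam and Itgb2 alone stayed. Itgam ranged from 6.86 to 8.08 when each cell was left out in turn, so its difference did not rest on cell 73 or cell 86.

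Remaining cells, set against Mpo-high cells, were past 2-fold higher in Itgb2, by 1.16 and 1.89, where 1.63% of all genes were, and lower in Itgb7, at -1.16 and -2.18, where 7.57% were, or 9.21% in either direction. Neither count was firm. Itgb2 was no longer counted without cell 3, 31, 44 or 46 of mouse 1 or cell 88 of mouse 2, with differences down to 0.81 in mouse 1 and 0.64 in mouse 2. Itgb7 was no longer counted without cell 22, 24, 30 or 34 of mouse 1, with a difference as near to 0 as -0.74. Relative to the median shift Itgb2 stayed past 2-fold higher, where 3.85% of all genes were, and Itgb7 did not stay lower, where 3.96% were. No chain was counted with a pseudocount of 10 TPM, a state level of 3000 TPM, Mpo taken first or the number of detected genes removed, and on log2 of the mean TPM Itgb7 was not counted.

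**Figure D3:**
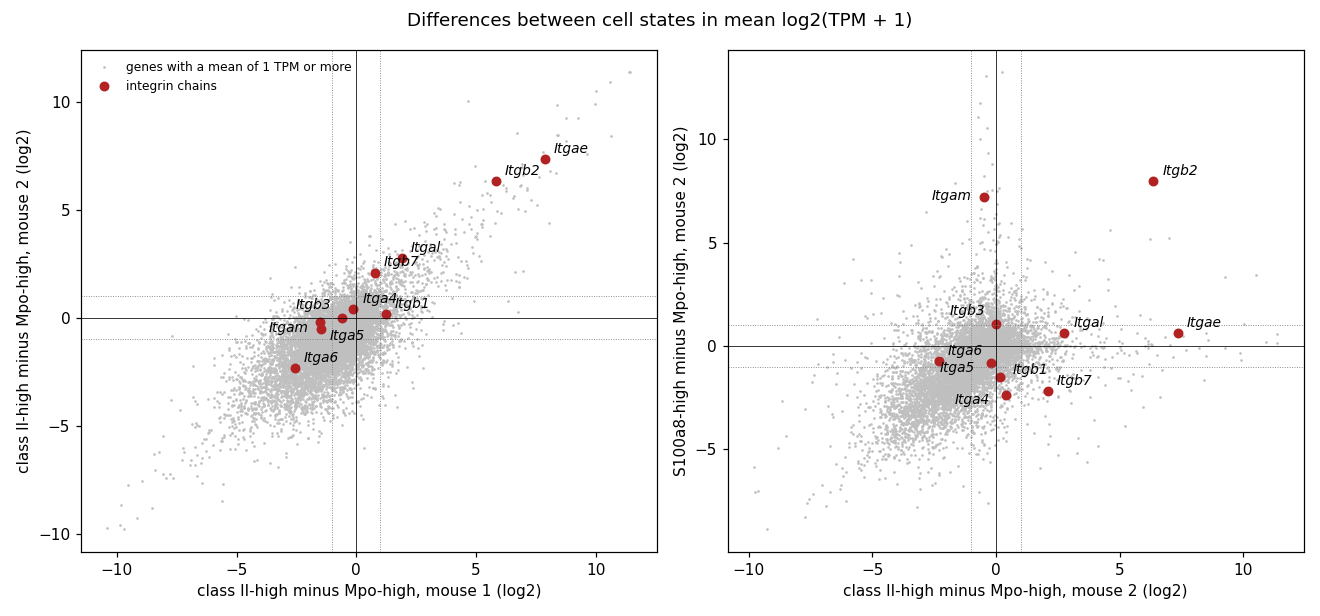
Difference of mean log2(TPM + 1) from Mpo-high cells for the 10 chains (red) and all 11015 genes (grey), class II-high cells of mouse 1 against mouse 2 on the left and class II-high against S100a8-high cells of mouse 2 on the right, with dotted lines at 2-fold. The comparisons on the right share the Mpo-high cells, and Itgb2 lies high on both axes, Itgae on the horizontal and Itgam on the vertical.

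Partner chains were then read in the same cell. Of detections of an alpha chain at 10 TPM or more, 60 of 89 in mouse 1 (67.4%, 56.7 to 77%) and 62 of 87 in mouse 2 (71.3%, 60.6 to 80.5%) came with a partner beta chain at that level. With 100 TPM as the level for both chains the shares were 30% and 53.1%. These detections share cells, and a transcript below detection is not an absent protein. Itgb7 was present in 8 of 13 cells with Itgae in mouse 1 and 12 of 18 in mouse 2, against 11 of 35 and 6 of 30 cells without Itgae. Within class II-high cells alone it was present in 8 of 13 with Itgae and 0 of 1 without in mouse 1, and in 12 of 17 and 1 of 3 in mouse 2.

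For the leukocyte family, Itgb2 was counted by state in cells with and without each alpha chain. In class II-high cells 7 of 7 and 12 of 13 cells with Itgal also held Itgb2, and so did 3 of 3 such S100a8-high cells of mouse 2. In Mpo-high cells 0 of 4 and 0 of 3 cells with Itgal held Itgb2, and in remaining cells 0 of 4 and 0 of 1. Cells without Itgal held Itgb2 in 4 of 7 and 7 of 7 class II-high cells, 7 of 7 S100a8-high cells of mouse 2, 1 of 9 and 1 of 9 Mpo-high cells and 4 of 16 and 2 of 5 remaining cells. Of cells with Itgam, 9 of 9 S100a8-high cells of mouse 2 and 0 of 4 and 0 of 1 Mpo-high cells held Itgb2, and of cells without Itgam 1 of 1 and 1 of 9 and 1 of 11. Cell 13 of mouse 1, rich in Mpo and placed in the S100a8-high state, held 123 TPM of Itgal, 60.8 TPM of Itgam and 255.7 TPM of Itgb2. The intervals for the zero counts are wide, reaching 60.2% for 0 of 4 cells.

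Itgb1 was present in 22 of 34 and 16 of 29 cells with Itga4, against 8 of 14 and 6 of 19 cells without it. It came with Itga5 in 5 of 6 and 3 of 3 cells and with Itga6 in 11 of 14 and 3 of 7 cells, against 25 of 42 and 19 of 45 cells without Itga5 and 19 of 34 and 19 of 41 without Itga6. Of the cells with Itga4, 13 of 34 and 13 of 29 held Itgb7, and of those without Itga4, 6 of 14 and 5 of 19.

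**Figure D4:**
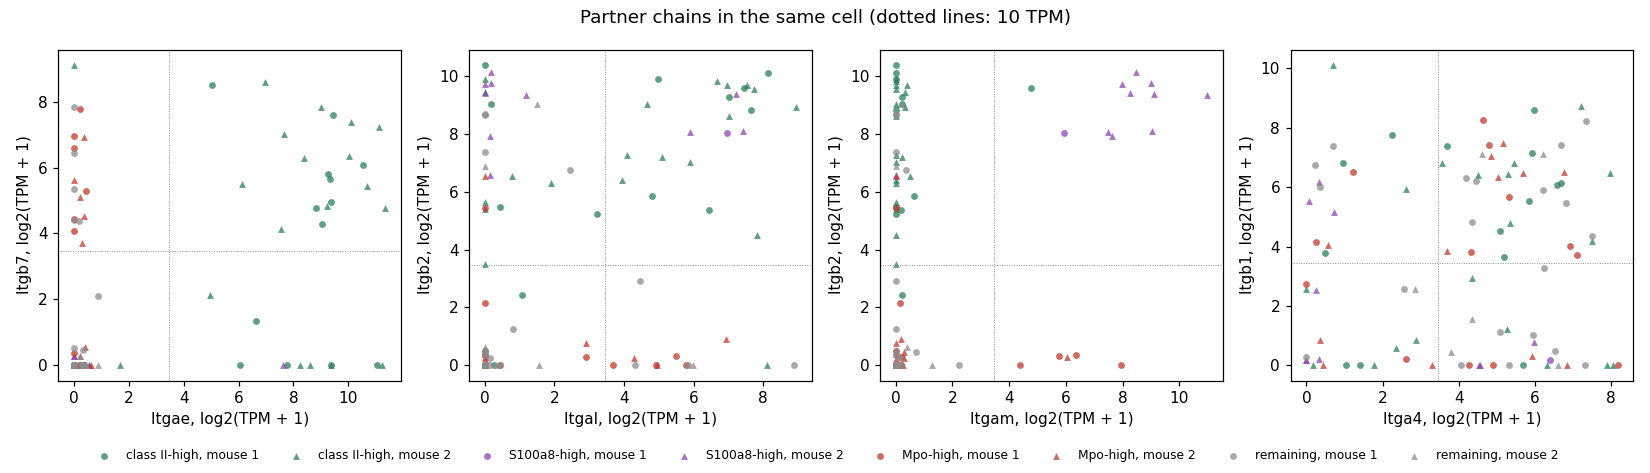
Levels of 4 partner pairs in each cell, as log2(TPM + 1), with the alpha chain on the horizontal axis, the beta chain on the vertical axis, states in colour, mouse 1 as circles, mouse 2 as triangles and dotted lines at 10 TPM. Mpo-high and remaining cells with Itgal or Itgam lie under the Itgb2 line, and class II-high and S100a8-high cells lie above it but for 1 cell with Itgal.

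The mice carried the same genotype, and over all cells 2 chains were past 2-fold higher in mouse 2 than in mouse 1, where 1.59% of all genes were, and 0 lower, where 11.6% were, or 13.2% in either direction. Itgb2 was higher by 2.37, with 32 of 48 cells at 10 TPM or more against 17 of 48. Taken as log2 of the mean TPM plus 1, the difference was 0.89 for Itgb2 and 0.82 for Itgae, so neither was past 2-fold. On that scale Itgam at 3.22, Itga5 at 1.36 and Itgb3 at -2.15 were past 2-fold. Single cells weigh heavily there. Cell 91 of mouse 2 held 552.4 TPM of Itga5, and cells 19 and 35 of mouse 1 held 317.5 and 185.2 TPM of Itgb3. In mean log2(TPM + 1) Itgae was higher by 1.05. That value fell under 2-fold when any of 45 single cells was left out, down to 0.88. Itgam stood at 0.996, just under 2-fold, and was counted when any of 45 single cells was left out, up to 1.15. The mice differed in how many cells were in each state, 30 against 15 being class II-high or S100a8-high. Within states the difference in Itgb2 was 0.69 in class II-high, 0.17 in Mpo-high and 0.90 in remaining cells, each under 2-fold, and that in Itgae was -0.37 in class II-high cells. Leaving out single cells moved Itgb2 from 0.19 to 1.07 in class II-high cells and from -0.36 to 1.45 in remaining cells.

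Within states 4 differences between the mice were past 2-fold, all lower in mouse 2. Itgb1 was at -1.07 in class II-high cells, where 11.9% of all genes were lower and 4.87% higher, and any of 15 single cells ended the count, with values as near to 0 as -0.78. Itgam was at -1.33 in Mpo-high cells, where 15.3% were lower and 9.78% higher, and fell under 2-fold without cell 1 or cell 23 of mouse 1, the latter giving -0.83. In remaining cells, where 13.9% were lower and 17.7% higher, Itgb7 was at -1.53 and stayed past 2-fold whichever cell was left out. Itgb3 in remaining cells was at -1.08 and was not past 2-fold without cell 7, 19, 35 or 40 of mouse 1, reaching -0.70 without cell 19.

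Other genes of the integrin system were counted in lists by role, in class II-high against Mpo-high cells of both mice and in S100a8-high against Mpo-high cells of mouse 2. Over all genes tested the median was -0.67 and -0.70 in the first comparison, with 3.06% higher and 27.4% lower, and -0.59 in the second, with 6.82% higher and 37.6% lower, and the counts below are to be read beside these shares. Of 16 further integrin chains 5 had a mean of at least 1 TPM, and of these Itgax alone was past 2-fold in class II-high cells, by 3.95 and 3.42, with 0 in S100a8-high cells.

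Activators and cytoplasmic linkers, which couple integrin tails to actin, had 20 of 25 genes measured, 2 higher and 4 lower in class II-high cells (medians 0.07 and -0.36) and 6 higher and 5 lower in S100a8-high cells (median 0.17). Zyx, a focal adhesion protein, was higher in class II-high cells by 3.44 and 3.04. Ilk, the integrin-linked pseudokinase, was lower at -2.94 and -2.84. Rasgrp2, an exchange factor for the integrin activator Rap, was lower at -3.58 and -2.49, and none of the class II-high cells held it at 10 TPM.

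Signalling kinases and GTPases had 13 of 16 genes measured, 2 higher and 1 lower in class II-high cells (medians -0.13 and 0.07) and 5 higher and 3 lower in S100a8-high cells (median 0.18). The Src family kinase Lyn was higher in class II-high cells by 3.58 and 2.47. Rac2, the blood cell Rac GTPase, was lower in class II-high cells at -1.57 and -5.23 and higher in S100a8-high cells by 1.34.

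Ligands had 8 of 18 genes measured, 0 higher and 3 lower in class II-high cells (medians -0.88 and -0.35), among them Icam2 at -1.53 and -2.90, a ligand of the Itgal pair. S100a8-high cells had 1 higher and 2 lower (median -0.14). Icam1, a ligand of the Itgal and Itgam pairs, was at 0.55 and 3.40 in class II-high cells and not counted. Tetraspanins and Cd47, which sit beside integrins in the membrane, had 9 of 9 measured, 2 higher and 3 lower in class II-high cells (medians -1.86 and 0.09) and 4 higher and 1 lower in S100a8-high cells (median 0.60). Cd63, a tetraspanin of granules and endosomes, was lower in class II-high cells at -8.10 and -5.48 and higher in S100a8-high cells by 3.22, and Cd9 was higher in both, by 4.09 and 6.25 and by 5.16. Other adhesion and homing receptors had 9 of 12 measured, 1 higher and 5 lower in class II-high cells (medians -1.53 and -1.08) and the same counts in S100a8-high cells (median -1.01). Cd24a, a surface glycoprotein that binds selectins, was higher in class II-high cells by 3.05 and 2.26 and in S100a8-high cells by 2.02.

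Outside these lists, Itgb2l, a gene related to Itgb2, was chosen after its values were seen. It reached 10 TPM in 8 of 10 S100a8-high cells of mouse 2, with a median of 310.7 and a highest value of 1091 TPM, and was 6.87 above the Mpo-high cells. The S100a8-high cells at 0 were cells 73 and 86. Itgb2l did not exceed 1.12 TPM in any class II-high cell, where Itgb2 was high. In mouse 1 the Mpo-high cell 20 held 152.8 TPM of Itgb2l and 0 of Itgb2. The S100a8-high cell 13 of that mouse held 0 of Itgb2l and 255.7 TPM of Itgb2. Whether reads of the genes were shared in S100a8-high cells was not tested.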

How the data were processed

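Full-length cDNA of single cells was made on a Fluidigm C1 chip with the SMARTer kit and sequenced as Nextera XT libraries, per the labels' protocols. The deposited table used here holds TPM per gene and cell, made by the authors with RSEM per the file names. A second deposited table holds RPKM values, with most values at a lowest value per gene, and was used as an alternative. TopHat2, RSEM and Bowtie2 and the builds mm9 and mm10 are named in the submitters' processing notes, without roles. TPM sums to 1000000 in each cell, so read depth is unknown, and the number of genes detected stands in for it. Groups are the mouse given in the labels and the marker-defined state.

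Cells were described by shares at 10 TPM or more with Clopper-Pearson 95% intervals (a share of 0 also with the limit of 3 counts) and by differences of mean log2(TPM + 1), counted from 1 upward. There is 1 animal per side between the mice and 2 animals for differences between states, so no model was fitted and no p-value is given. The calculations were also run on simulated data, with known changes added on the log2 scale on which differences were read. That run checks the arithmetic and does not model detection that differs between states. Python 3.11.15, pandas 2.3.3, numpy 2.4.6 and scipy 1.17.1 were used. Doublets were not called, because the labels state that wells were scored by eye.

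The members, the states and the gene lists were chosen with earlier results of these data known. Named genes are all members; per list, the 2 with the highest mean and the 3 with the largest difference; and the 3 genes with the highest Spearman correlation for each member detected in at least 10 cells of each mouse, by the lower of the mice. Some genes this rule names are not reported here. Alternatives were state levels of 300 and 3000 TPM, another order of states, pseudocounts of 0.1 and 10 TPM, log2 of the mean TPM, centring, removal of the detected gene number, omission of shallow cells and of each cell, filters on low values, and the RPKM table.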

Additional observations from a re-analysis of the deposited data

How the results depend on the processing

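Of the 614 member results recomputed under other settings, 5 were counted differences that turned in direction, and these were set apart first, whatever their size. Of the others, 592 moved by less than that chain's standard deviation over cells and 17 did not. This tolerance is wide, and it does not ask whether a value stayed on its side of 2-fold. Of the 10 chains, 4 were past 2-fold in class II-high against Mpo-high cells, 6 in S100a8-high against Mpo-high cells, 2 in remaining against Mpo-high cells and 2 between the mice, beside 30.5%, 44.5%, 9.21% and 13.2% of all genes. Leaving out each cell in turn gave 4 to 5, 5 to 7, 1 to 2 and 1 to 3. The RPKM table, in which the 9 chains it holds rise above their lowest value in few cells, gave 0, 2, 0 and 0. A pseudocount of 10 TPM gave 3 for S100a8-high cells, 0 for remaining cells and 1 between the mice. Removing the number of detected genes gave 0 for remaining cells and 1 between the mice, and centring gave 1 and 4. On log2 of the mean TPM neither Itgb2 nor Itgae was past 2-fold between the mice. For remaining cells a state level of 3000 TPM and an assignment to Mpo first each gave 0. Detection at 100 TPM left 30% and 53.1% of alpha chains with a partner. Directions turned for Itgb1 (0.45, S100a8-high, centred), Itga4 (0.036, S100a8-high, RPKM), Itgb2 (-0.11) and Itgb7 (0.069) of remaining cells in mouse 1 at 3000 TPM, and Itgae between the mice (-0.019, RPKM); the cause was not tested. Leaving out cells within states was added after seeing the data. No paired analysis was possible because the results come from no test: state differences were already taken within each mouse, and the mice themselves share no replicate numbers. Depth is unknown, so a chain under 10 TPM is not shown to be absent.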
